A study of Rattus norvegicus with 6 samples.

Results

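The nicotinic acetylcholine receptor subunits of neurons were followed across the pineal gland, 3 structures of the ventricular wall and total brain of the adult rat. The genes were chosen by name: Chrna3, Chrnb4, Chrna5, Chrna4, Chrna7 and Chrnb2. Of these 6 genes, 5 had at least 1 probe with that single gene symbol, out of 12167 genes with a named probe measured on every array. They were covered by 8 probes, 3 for Chrnb4, 2 for Chrna5 and 1 each for Chrna3, Chrna4 and Chrnb2. No probe was listed under Chrna7, so its level was not analysed here.

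All animals were normal adult male Sprague-Dawley rats. The pineal gland was measured on 2 arrays, and 4 tissues were measured on 1 array each. These were the third ventricle ependyma, the subfornical organ, the subcommissural organ and total brain. The first 3 were each a pool of 2, the total brain sample was a pool of normal brains used as the reference, and all but total brain were cut out with a laser under the microscope. The labels do not say what was pooled, the age beyond adult, or whether both pineal gland arrays came from separate animals. The p-values therefore measure only the spread between that pair, which may be technical.

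Nicotinic receptors are ion channels built of a ring of subunits that opens when acetylcholine binds and lets cations enter the cell. Receptors that join Chrna3 and Chrnb4, with or without Chrna5, are the classical type of autonomic ganglia and of the medial habenula, whereas Chrna4 with Chrnb2 makes up the most widespread type of the brain, and Chrna7 forms channels on its own. The genes Chrna5, Chrna3 and Chrnb4 lie side by side in mammalian genomes. Pinealocytes, the melatonin-making cells of the pineal gland, are known to be depolarized by acetylcholine through nicotinic receptors, which opens calcium channels and releases glutamate that in turn lowers melatonin output.

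Values are the deposited intensities, in arbitrary units on a linear scale, which can be compared between arrays for 1 probe but not between probes. The median of each array lay between 1.04 and 1.07. The pooled median of 1.05 was taken as the lower limit of a usable signal, because no detection call was used here. Genes were taken as measured where the higher of both sides reached that value, and a fold against a lower value is given as "at least", computed against 1.05. A log2 difference from such a value, and a call that rests on it, includes a reading under that limit, so that only the bound gives its size. In the pair of pineal gland arrays the log2 difference had an SD of 0.82 over 9969 genes that reached the median on any array, with a median of 0.40 toward the first array. This SD was 1.30 for genes whose pineal mean was under the pooled median. It was 0.78 from there to the 75th percentile and 0.52 from that percentile upward. The value of 0.82 used below is thus smaller than the spread of dim genes. The main fit, with 1 standard error for all genes, does not allow for this either, so calls near the limit are too easy.

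Chrna3, the subunit that forms the acetylcholine binding face of the ganglionic receptor, was at 123 and 84.6 on the 2 pineal gland arrays. It was at 0.745 in the subcommissural organ, 0.591 in the subfornical organ, 0.840 in the ependyma and 1.90 in total brain. Only the pineal gland and total brain lay above the pooled median. The pineal pair's spread was 0.53 on the log2 scale for this probe and 0.82 over all genes, and the step from the pineal gland to total brain was beyond it. Total brain was at least 1.81-fold above the remaining 3 tissues, which were all under the limit. The ependyma, the subcommissural organ and the subfornical organ differed from their neighbours in this order by 0.17 and 0.33, within that spread.

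Chrnb4, its partner subunit, gave the same picture on its brightest probe, at 86.7 and 62.6 in the pineal gland. This probe read 0.615 in the subcommissural organ, 2.77 in the subfornical organ, 0.682 in the ependyma and 1.56 in total brain. The other 2 probes of Chrnb4 were dimmer but had the same high group. One read 8.14 and 5.74 in the pineal gland and at most 0.925 elsewhere. The second read 9.02 and 5.57 in the pineal gland and at most 0.634 elsewhere. The values above the median in the subfornical organ and in total brain were seen with the brightest probe only. The other 2 probes read 0.611 and 0.443 in the subfornical organ, and 0.304 and 0.634 in total brain. On the brightest probe the step from the pineal gland to the subfornical organ (4.73) was beyond the spread, while that on to total brain (0.83) was about as large as the spread over all genes. Total brain was on this probe at least 1.49-fold above the ependyma and the subcommissural organ, which were both under the limit.

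Chrna5, an accessory subunit that does not bind acetylcholine by itself and changes how the channel responds, was highest in total brain on both of its probes. The brighter probe read 2.78 in total brain, 1.81 and 0.448 in the pineal gland, 0.337 in the subcommissural organ, 0.863 in the subfornical organ and 0.454 in the ependyma. The other probe read 3.80 in total brain, 0.386 and 0.290 in the pineal gland, 0.405 in the subcommissural organ, 0.503 in the subfornical organ and 0.438 in the ependyma. Both probes were thus under the pooled median in all 3 structures of the ventricular wall. The pineal gland pair disagreed on the brighter probe, with a log2 difference of 2.01, and for this probe no step in the order of tissues was larger than that. On the other probe total brain stood 2.92 above the next tissue, beyond the spread, and the remaining steps were within it.

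Chrna4 and Chrnb2 form the common receptor type of the forebrain. Chrna4 was under the pooled median on every array, from 0.258 on the second pineal gland array to 0.621 in the subcommissural organ, and at 0.422 in total brain. A gene known to be active in many brain regions thus gave no usable signal here, also in the reference. Chrnb2 was above the median on all 6 arrays, at 2.03 and 2.36 in the pineal gland, 1.35 in the subcommissural organ, 2.46 in the subfornical organ, 1.83 in the ependyma and 2.18 in total brain. No step in its order of tissues, of which the largest was 0.43 between the ependyma and the subcommissural organ, was beyond the spread.

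**Figure D1:**
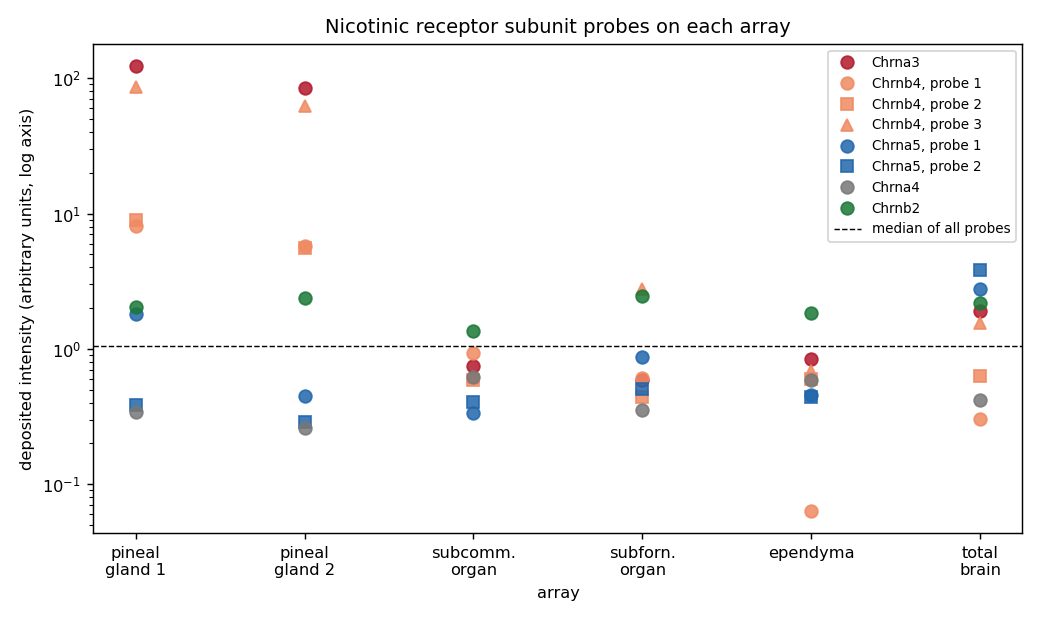
Deposited intensity (log axis) of the 8 probes of the 5 measured subunit genes on each of the 6 arrays, with the pooled median of all probes as a dashed line. Chrna3 and all 3 probes of Chrnb4 are highest on both pineal gland arrays, Chrna5 is highest in total brain and Chrnb2 is nearly level.

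The pineal gland was set against each other tissue to ask which subunits distinguish it, with the same 2 pineal gland arrays in all of these comparisons. Against total brain, Chrna3 and Chrnb4 were higher by 5.75 ± 0.72 and 5.56 ± 0.72 on the log2 scale (limma, standard error, 2 arrays against 1), with adjusted p-values of 1.42e-13 and 9.48e-13. In folds, Chrna3 was 53.7-fold and Chrnb4, on its brightest probe, 47.1-fold higher. The other 2 probes of Chrnb4 gave only at least 6.51-fold and at least 6.75-fold, here and against each other tissue. Of 9072 genes tested, 23.8% were called, 7.67% as higher and 16.1% as lower in the pineal gland. By the size of this difference Chrna3 had rank 42 and Chrnb4 rank 44 of 9072. The standard error was the same for every gene in this fit, so a call amounted to a minimum log2 difference of 1.82. Where the spread was allowed to differ between genes, after quantile normalization, the adjusted p-value was 0.0152 for both genes.

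Chrna5 was lower in the pineal gland than in total brain at a log2 difference of -1.63 (95% interval -3.04 to -0.21), which did not pass the test (limma, adjusted p = 0.0893). With the mean of both probes in place of the brighter one it passed, at -2.57 with an adjusted p-value of 0.00167. The difference depended on the pineal gland array, being -2.63 without the first array and -0.62 without the second. In a fit over all 20287 probes that passed the filter, the dimmer Chrna5 probe was called lower (log2 difference -3.51, limma, adjusted p = 0.0112) and the brighter one was not (adjusted p = 0.266). Chrnb2 differed by 0.01, with a 95% interval from -1.41 to 1.42, and a difference under 1.82 in either direction would not have been called. All 3 probes of Chrnb4 passed in that fit, by log2 differences of 5.56, 4.49 and 3.48, with a largest adjusted p-value of 0.0129.

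Against the ependyma, Chrna3 was higher by 6.92 ± 0.72 and Chrnb4 by 6.75 ± 0.72 (limma, adjusted p = 1.24e-19 and 1.01e-18), at least 96.9-fold and at least 70.1-fold. Of 8963 genes 20.2% were called, 7.25% as higher and 12.9% as lower. Against the subcommissural organ the differences were 7.10 and 6.91, with the same bounds on the fold. Of 8840 genes 20.8% were called there, 9.29% as higher and 11.5% as lower. Against the subfornical organ Chrna3 was higher by 7.43 and Chrnb4 by 4.73, the latter a 26.6-fold difference. Of 9003 genes 20.7% were called there, 7.02% as higher and 13.7% as lower. The other 2 probes of Chrnb4 gave 3.48 and 3.999 against the subfornical organ. Chrnb2 passed in none of these 3 comparisons, where its log2 differences were 0.26, 0.69 and -0.17. The last of these turned to 0.01 after quantile normalization. Chrna4 was under the pooled median on both sides in the same 3 comparisons and was not tested. Chrna5 was not tested there either, since the mean of its log2 values in the pineal gland was under that limit, although the first array was above it.

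**Figure D2:**
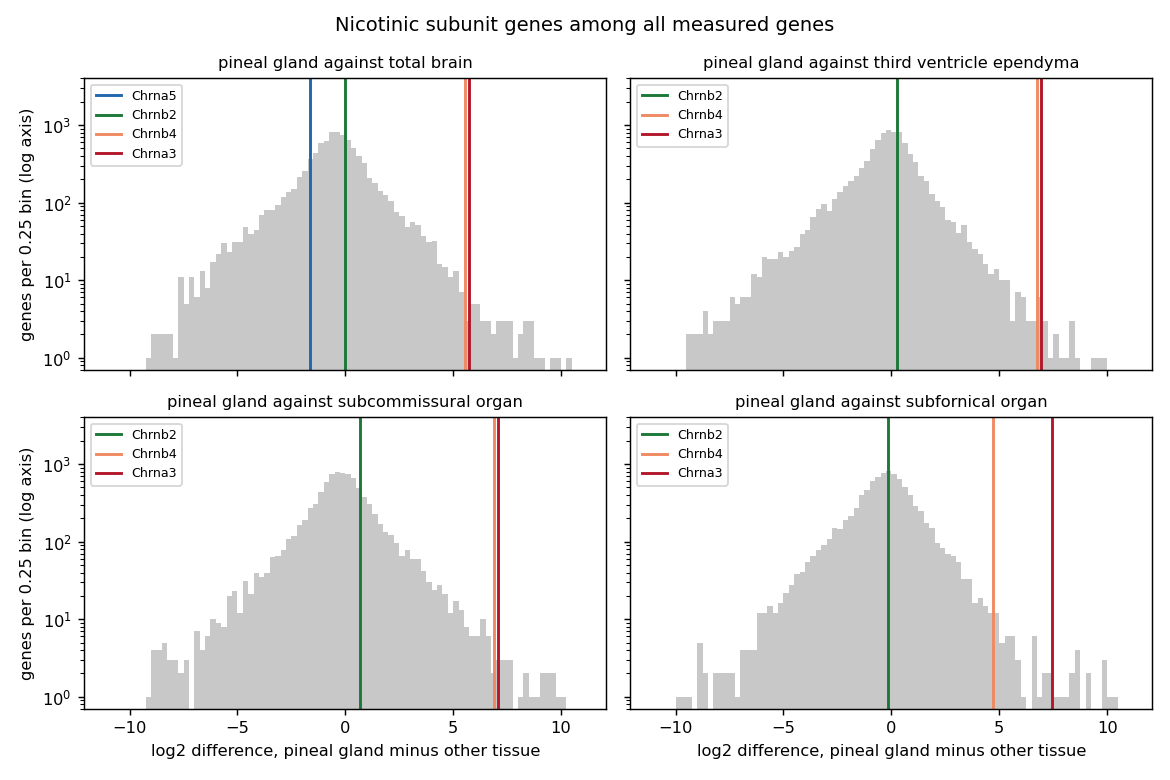
Number of genes (log axis) by log2 difference between the pineal gland and each other tissue in bins of 0.25, with the measured subunit genes as vertical lines. Chrna3 and Chrnb4 lie in the upper tail in all 4 panels, with Chrnb4 at 4.73 against the subfornical organ, and Chrnb2 lies near 0.

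A stricter reading took the lower pineal gland array against the highest of the other tissues. By this measure 90 of 9969 genes (0.903%) were at least 4-fold above every other tissue. Chrna3 was 44.6-fold above, rank 19 of 9969, and Chrnb4 22.6-fold above, rank 24. Chrnb2 and Chrna5 were below their highest other tissue, at ratios of 0.827 and 0.161.

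In the structures of the ventricular wall, with 1 array on each side and no replicate check, no subunit gene was at least 4-fold higher than in total brain. Of all measured genes 23.5% were past 4-fold in the subcommissural organ (8.62% higher), 16.8% in the subfornical organ (7.19% higher) and 16.7% in the ependyma (7.38% higher). Chrna5 was at least 4-fold lower in the subcommissural organ, at a log2 difference of -3.04, and in the ependyma, at -2.61, where 14.9% and 9.34% of genes were lower by that size. Read against the limit of 1.05, these are differences of at least 2.65-fold. In the subfornical organ Chrna5 was at -1.69, and on the probes used no subunit gene passed 4-fold in either direction, beside 9.63% of genes that were lower. The other, dimmer probe of Chrna5 was at -2.92 there, at least 3.62-fold. Chrna3 was lower than in total brain in all 3 structures, at -1.35 in the subcommissural organ, -1.68 in the subfornical organ and -1.18 in the ependyma, each at least 1.81-fold.

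Chrna5, Chrna3 and Chrnb4 are consecutive protein-coding genes on chromosome 8 of the RefSeq annotation of the rat genome (GRCr8), so the levels of the genes around them were read from the same arrays. Chrna5 is read from the plus strand and the other 2 from the minus strand. The window ran from the 6th gene before Chrna5 to the 6th after it, by position and not by value, and 7 of its genes other than the subunits had a probe. Psma4, a proteasome subunit gene directly beside Chrna5, was at 98.1 and 58.3 in the pineal gland, between 60.9 and 74.8 in the ventricular structures and at 69.0 in total brain. Fbxo22, the nearest gene beyond Chrnb4 with a probe, was at 25.7 and 13.5 in the pineal gland and 20.0 in total brain. Neither stands out in the pineal gland.

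Against total brain 5 of these 7 neighbours were measured, and their log2 differences lay between -0.99 and 0.13. None was called, beside 23.8% of all genes. Against the subcommissural and the subfornical organ 6 were measured, between -1.37 and 0.33 and between -1.45 and 0.31. None was called, beside 20.8% and 20.7% of all genes. Against the ependyma 5 were measured and 1 was called, beside 20.2% of all genes. This was the chaperone gene Dnaja4, at a log2 difference of -2.25 (limma, adjusted p = 0.0116). In this window only Chrna3 and Chrnb4 were called higher in the pineal gland, beside 7.02% to 9.29% of all genes. At such shares few or none of so few neighbours would be called higher, so their counts say little. Chrna5 was tested against total brain only and was not called. Adamts7, listed as a neighbour from the human order of genes, lies 294 protein-coding genes from Chrna5 in the rat. It was highest in total brain, at 14.1, and at 5.90 and 6.09 in the pineal gland and 3.34 in the subfornical organ. In the ependyma and the subcommissural organ it was under the limit, and it was called higher in the pineal gland than in both, at least 5.71-fold.

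**Figure D3:**
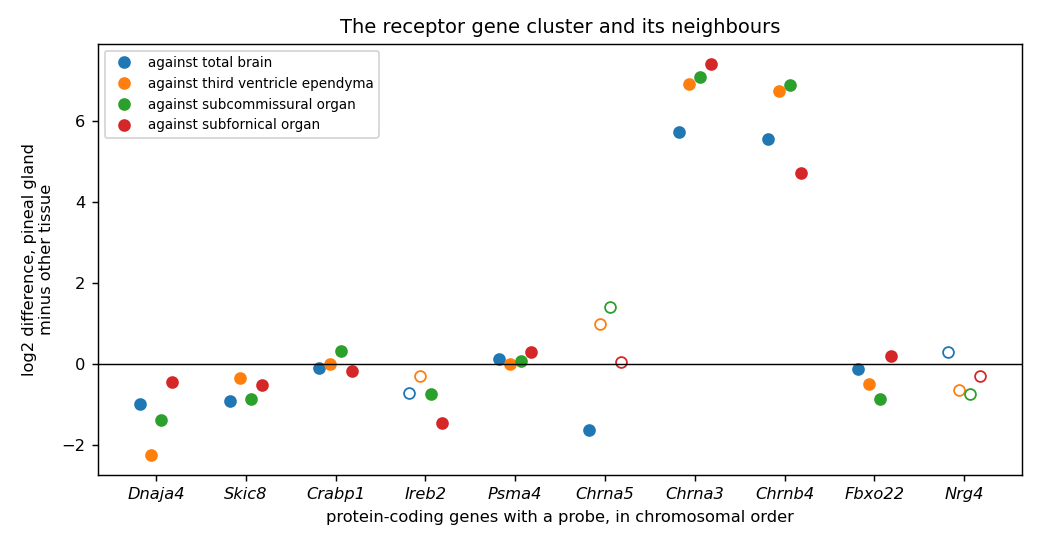
Log2 difference between the pineal gland and each of 4 other tissues for the genes with a probe around the receptor cluster, in chromosomal order. Filled points are measured comparisons and open points have both sides under the pooled median. Chrna3 and Chrnb4 stand between 4.73 and 7.43, while the other measured points lie between -2.25 and 0.33.

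The stretches of 250 bases before the annotated starts of the 3 clustered genes are shown, because the first pair was high in the pineal gland and the third was not. They come from RefSeq (GRCr8), are written on the strand of the gene, and matched by symbol for all 6 genes. Capitals mark the GC box GGGCGG, or CCGCCC where it lies on the other strand, to which Sp1 and related factors bind.
Chrna3, chr8:64311252-64311501, minus strand: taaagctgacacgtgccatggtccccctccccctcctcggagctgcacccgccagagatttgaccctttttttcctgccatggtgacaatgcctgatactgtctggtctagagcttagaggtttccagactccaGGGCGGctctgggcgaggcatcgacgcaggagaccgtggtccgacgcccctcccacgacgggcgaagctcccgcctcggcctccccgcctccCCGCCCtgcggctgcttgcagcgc
Chrnb4, chr8:64333110-64333359, minus strand: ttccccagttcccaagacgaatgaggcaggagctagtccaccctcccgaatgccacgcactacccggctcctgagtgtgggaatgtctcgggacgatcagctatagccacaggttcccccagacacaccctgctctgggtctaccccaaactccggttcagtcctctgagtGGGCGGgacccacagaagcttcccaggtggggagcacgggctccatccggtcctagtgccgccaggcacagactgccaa
Chrna5, chr8:64265629-64265878, plus strand: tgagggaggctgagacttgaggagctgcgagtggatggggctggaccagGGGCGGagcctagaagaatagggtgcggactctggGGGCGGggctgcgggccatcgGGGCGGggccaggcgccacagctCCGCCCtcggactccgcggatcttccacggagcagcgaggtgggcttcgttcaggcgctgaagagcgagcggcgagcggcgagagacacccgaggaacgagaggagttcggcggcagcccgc

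The window held 2 GC boxes for Chrna3, 1 for Chrnb4 and 4 for Chrna5. GC boxes were also in the windows of the subunit genes outside the cluster, 3 for Chrna4 and 1 each for Chrna7 and Chrnb2. Those of Chrna3 began 116 and 24 bases before the start, and that of Chrnb4 began 79 bases before it. Of 33469 windows of this length in the same table, 30.5% held at least 1 GC box on either strand. The share of G and C was 65.2% for Chrna3, 62.0% for Chrnb4 and 70.4% for Chrna5, against a median of 51.2% over all windows. The core TAATCC, bound by the pineal factors CRX and OTX2, was searched on both strands and was in 6.34% of all windows but in none of these 3. The letters TGANTCA (AP-1), CAGCTG (an E-box) and TGACGTCA (a cAMP response element) were also not in these 3 windows, and they were in 6.34%, 11.97% and 1.59% of all windows. These letters and TAATCC were absent from the windows of Chrna4, Chrna7 and Chrnb2 as well. No motif overlapped another.

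Of 10 further nicotinic subunit genes, which serve muscle, the inner ear or restricted groups of neurons, 9 had a probe. For 5 of them, Chrna9, Chrna10, Chrnb3, Chrnd and Chrng, every array was under the pooled median on the probe used. Chrnb1, a muscle subunit, was at 4.34 and 2.10 in the pineal gland, 3.62 in the subcommissural organ, 1.05 in the subfornical organ, 2.08 in the ependyma and 0.513 in total brain. Total brain read lowest, the subfornical organ was also just under the limit (1.046 against 1.051), and the subcommissural organ lay between both pineal gland arrays. Chrnb1 was called higher in the pineal gland than in total brain (log2 difference 2.56, limma, adjusted p = 0.00288, with adjusted p up to 0.0873 under other settings), at least 2.87-fold. Its other probe was under the pooled median on all arrays.

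Chrna1 and Chrna6, the other 2 subunits measured against total brain, were not called. Chrna1, the main muscle subunit, was at 1.69 and 0.704 in the pineal gland and 2.13 in total brain. Chrna6, known from dopamine neurons, was above the median only in total brain, at 1.41. Chrne, the subunit of adult muscle, was above it only in the subcommissural organ, at 1.84, and the ependyma, at 1.32, and was called lower in the pineal gland than in both, at adjusted p-values of 0.00532 and 0.0380 (limma), but not after quantile normalization or without the filter on low values, with adjusted p-values up to 0.146 and 0.235. Its bounds were at least 1.75-fold and at least 1.25-fold.

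Proteins that help nicotinic receptors to assemble or that hold them back were taken as a list of 9 genes, of which 7 had a probe. Against total brain 1 of the 5 measured was called higher and 2 lower, with a median log2 difference of -1.33, beside 7.67% and 16.1% of all genes and their median of -0.45. Tmem35a, which encodes a chaperone of nicotinic receptor assembly known as NACHO, was at 3.47 and 2.07 in the pineal gland. It was at 0.331 in the subcommissural organ, 0.926 in the subfornical organ, 0.548 in the ependyma and 0.648 in total brain. Both pineal gland arrays were above the pooled median and every other array was below it. The log2 difference was 2.05 against total brain (limma, adjusted p = 0.0233, and 0.131 at most under other settings), 2.29 against the ependyma and 3.01 against the subcommissural organ, where without the filter the adjusted p-values were 0.115 and 0.0524. Against the subfornical organ it was 1.53 and did not pass. The 4 other readings were under the limit, so the bound was at least 2.55-fold in each comparison.

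Ly6h and Lynx1 encode small proteins of the lynx family that bind nicotinic receptors and limit their surface level or response. Ly6h was at 0.720 and 0.431 in the pineal gland, 37.2 in the subcommissural organ, 33.9 in the subfornical organ, 75.5 in the ependyma and 116 in total brain. The pineal gland was the only tissue without a usable signal, at least 111-fold below total brain and at least 32.3-fold below the subfornical organ, and all 4 comparisons were called by limma. Lynx1 was at 1.74 and 2.11 in the pineal gland, 2.22 in the subcommissural organ, 4.56 in the subfornical organ, 16.5 in the ependyma and 102 in total brain. It was 53.3-fold lower than in total brain and 8.60-fold lower than in the ependyma, and its second probe gave log2 differences of -5.26 and -3.18 there. Against the subcommissural and subfornical organs it was not called.

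Ly6e, a relative of the same family, was at 67.9 and 66.9 in the pineal gland and 72.3 in total brain, but at 6.87 in the subcommissural organ, so that it was called higher in the pineal gland than there, 9.81-fold. Rapsn, which anchors the muscle receptor, was at 2.43 and 6.26 in the pineal gland and was called in no comparison of the gland. Ric3, a chaperone of Chrna7 receptors, and Lypd1, another lynx protein, were under the pooled median on every array.

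Genes that make, load, take up and degrade acetylcholine gave little signal in any tissue. Of 5 genes, 4 had a probe, and on the probe used for each, Chat, the synthesizing enzyme, Slc18a3, the vesicular transporter, Slc5a7, the choline transporter, and Bche, a cholinesterase, were under the pooled median on all 6 arrays. The highest of these values was 0.810, for Chat in the ependyma. The other probe of Bche was just above the limit in total brain, at 1.11, and below it elsewhere. Since Chat, Slc18a3 and Slc5a7 also lay below the limit in total brain, which holds cholinergic neurons, a low level elsewhere was not detectable with these probes. Of 5 muscarinic receptor genes, the slower class of acetylcholine receptor, 3 were under the median everywhere. Chrm3 was at 2.76 in total brain and at most 0.790 elsewhere. Chrm4 was at 1.63 in total brain, 1.498 in the subcommissural organ and 0.449 and 0.159 in the pineal gland. Both were called lower in the pineal gland than in total brain (limma, adjusted p = 0.00990 and 0.00230), beside 16.1% of all genes. This did not hold after quantile normalization or without the filter, where the largest adjusted p-values were 0.111 and 0.115 (limma). The bounds were at least 2.63-fold for Chrm3 and at least 1.55-fold for Chrm4.

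**Figure D4:**
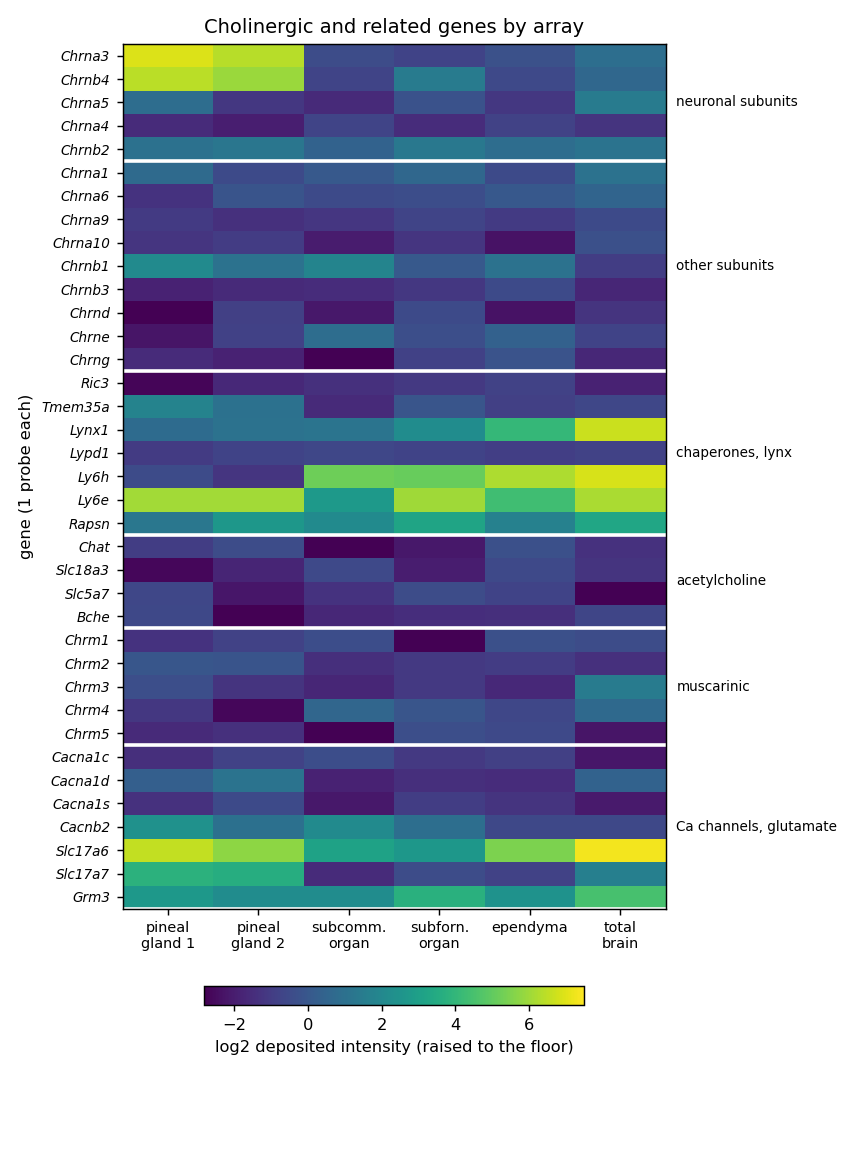
Log2 of the deposited intensity on each array for the probe used of each gene, grouped by role, with values below the floor raised to it. Colours can be compared along a row but not between rows. Chrna3, Chrnb4 and Tmem35a are brightest in the 2 pineal gland columns, where Ly6h is dark, and the acetylcholine genes are dark in every column on the probes used.

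Calcium channels and the glutamate system, which act after the nicotinic receptor in pinealocytes, were a list of 7 genes, all with a probe. Against total brain 2 of 5 measured genes were called higher and 1 lower, with a median of 0.28, beside 7.67% and 16.1% of all genes and a median of -0.45. Slc17a7, which loads glutamate into vesicles, was at 14.0 and 12.3 in the pineal gland, 3.13 in total brain and at most 0.742 in the other structures. It was 4.18-fold higher than in total brain (limma, adjusted p = 0.0219, and 0.108 without the filter) and at least 12.5-fold higher than in each ventricular structure. Slc17a6, with the same role, was at 94.1 and 53.5 in the pineal gland and 161 in total brain, 8.23-fold higher than in the subcommissural organ (adjusted p = 0.0532 without the filter, limma) and 11.3-fold higher than in the subfornical organ.

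Cacna1d, a pore subunit of L-type calcium channels, was at 1.24 and 2.16 in the pineal gland, 1.34 in total brain and at most 0.369 in the ventricular structures. It was at least 1.56-fold higher than in each of these 3, where the readings were under the limit, and the fit called all of these differences (limma), but without the filter none of the 3 passed, with adjusted p-values from 0.0879 to 0.135. Its second probe was under the pooled median on all arrays. Cacnb2, an auxiliary calcium channel subunit, was at 5.22 and 2.01 in the pineal gland, 4.31 in the subcommissural organ and 1.86 in the subfornical organ. In total brain it was at 0.661 and in the ependyma at 0.664, and it was called higher than in these tissues only, at least 3.08-fold. Under other settings the adjusted p-values of these calls were up to 0.143 and 0.162 (limma). Grm3, the glutamate receptor that lowers melatonin output, was 4.16-fold lower than in total brain (limma, adjusted p = 0.0225, and up to 0.117 under other settings), and its other probe showed -4.56 on the log2 scale. Cacna1c and Cacna1s were under the median on every array.

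Transcription factors known to act on the promoters of the cluster were a list of 7 genes, and 4 had a probe. Sp1 was at 9.72 and 7.26 in the pineal gland and 15.3 in total brain, and Jun at 3.26 and 2.38 against 7.73, with neither called. Phox2a, a factor of autonomic neurons, lay between 2.13 and 3.63 on all arrays. Sox10, a factor of glia that can drive these promoters, was below the median on both pineal gland arrays against 9.09 in total brain and 13.8 in the subfornical organ, and was called lower than in both, at least 8.65-fold and at least 13.1-fold. After quantile normalization the adjusted p-value against total brain was 0.0545. None of the 4 was called higher in the pineal gland on the probe used. The probes of Sp1 disagreed, since another read 4.33 and 2.08 in the pineal gland against 0.726 in total brain.

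Marker genes were read beside these values, since in whole tissue fewer cells of a type and less RNA per cell cannot be told apart. Of 9 pinealocyte markers, 8 were called higher in the pineal gland than in total brain, beside 7.67% of all genes. Crx, at a log2 difference of 1.09, was not called. A summed intensity adds probes that cannot be compared with each other, so the brightest probes set it. The 9 summed to 2520 and 2064 in the pineal gland, 143 in the subcommissural organ and 54.7 to 73.6 in the other 3 tissues. Of the 143, Otx2 gave 124. Tph1, which makes the first step to serotonin, was at 547 and 352 against 1.91 in total brain. Between both pineal gland arrays the first was higher by 0.64 for Tph1, 0.53 for Chrna3 and 0.47 for the brightest probe of Chrnb4.

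The medial habenula, a cell group near the stalk of the pineal gland, is known for high levels of Chrna3 and Chrnb4. Of its 8 listed markers 7 had a probe, 5 of these were under the pooled median on every array, among them the defining genes Pou4f1 and Gpr151, and the summed intensity was 4.11 and 3.77 in the pineal gland, 5.31 in the subfornical organ, 32.8 in the subcommissural organ, 38.0 in the ependyma and 92.1 in total brain. Tac1, the neuropeptide gene of its dorsal part, was at 1.42 and 0.833 in the pineal gland against 52.4 in total brain, and Calb2 at 0.797 and 0.927 against 38.6. The differences in the sum came from Tac1 and Calb2. Neuron markers summed to 27.9 and 22.9 in the gland, with Gad1 at 17.0 and 14.6, against 799 in total brain, with Thy1 at 509. Of 7 measured, 6 were called lower, beside 16.1% of all genes, and Gad1 was not.

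Markers of autonomic neurons, which carry the same subunits, had 5 probes for 7 genes. The defining gene Dbh was under the median in the pineal gland, at 0.455 and 0.348, and Th was at 0.842 and 1.02. Prph, a filament of peripheral neurons, differed between both pineal gland arrays, at 17.4 and 151, and was at 199.997 in total brain. The summed level of the list was 22.8 and 156 in the pineal gland and 55.5 to 271 elsewhere. Oligodendrocyte markers summed to 56.1 and 33.3 in the pineal gland against 1260 in total brain, and astrocyte markers to 110 and 51.6 against 454. Most of these pineal sums came from Cnp (50.1 and 27.7) and Gja1 (88.1 and 39.1). The astrocyte gene Gfap was at 0.554 and 0.568 in the gland against 28.4 in total brain. Ciliated ependyma markers summed to 10.5 and 10.3 in the pineal gland, against 988 in the subcommissural organ, 263 in the subfornical organ and 1161 in the ependyma. Foxj1, also on this list, was under the median on every array. No list was made of markers of the subcommissural or subfornical organ. Microglia and macrophage markers summed to 201 and 192 in the pineal gland against 334 in total brain. Choroid plexus markers summed to 322 and 302 against 159, mostly through Otx2 (214 and 140 in the pineal gland), which is also a listed pinealocyte marker, and Ttr (104 and 152), with the defining genes Kl under the median on every array and Kcnj13 at 0.981 and 0.552 in the gland. The part of other cell types in these levels was not tested.

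The genes whose pattern over the 6 arrays was most like that of each subunit were named by Pearson correlation of log2 values. The 6 points include the pair from the same tissue, so a high r mainly reflects the step between the gland and the rest, and it is given as a description. Among 5354 genes with a range of at least 4-fold, those closest to Chrna3 were Reep6, Tph1, Slco4a1, Unc119 and Col8a1, with r between 0.995 and 0.997. Closest to Chrnb4 were Pla2g5, Mitf, Opn1sw, Gnb3 and Cenpu, with r between 0.989 and 0.995. Pla2g5 followed the profile of Chrnb4 also in the subfornical organ, at 66.1 and 42.7 in the pineal gland, 0.609 in the subcommissural organ, 4.05 in the subfornical organ, 0.774 in the ependyma and 1.40 in total brain. The subfornical reading of Chrnb4 above the limit was not seen with its other 2 probes, at 0.611 and 0.443.

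Chrna3 and Chrnb4 correlated with each other at r = 0.96, which placed Chrnb4 at rank 68 in likeness to Chrna3 and Chrna3 at rank 64 in likeness to Chrnb4. Tmem35a stood at rank 35 for Chrnb4 (r = 0.97) and at rank 175 for Chrna3 (r = 0.90). Chrna5, with r of 0.22 to Chrna3 and 0.25 to Chrnb4, had Kcnj8, a potassium channel gene, as its closest gene (r = 0.98), followed by Zfp455l1, Afm, Rims3 and Rcbtb1. Of these, Zfp455l1, Afm and Rims3 were above the limit in total brain only.

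**Figure D5:**
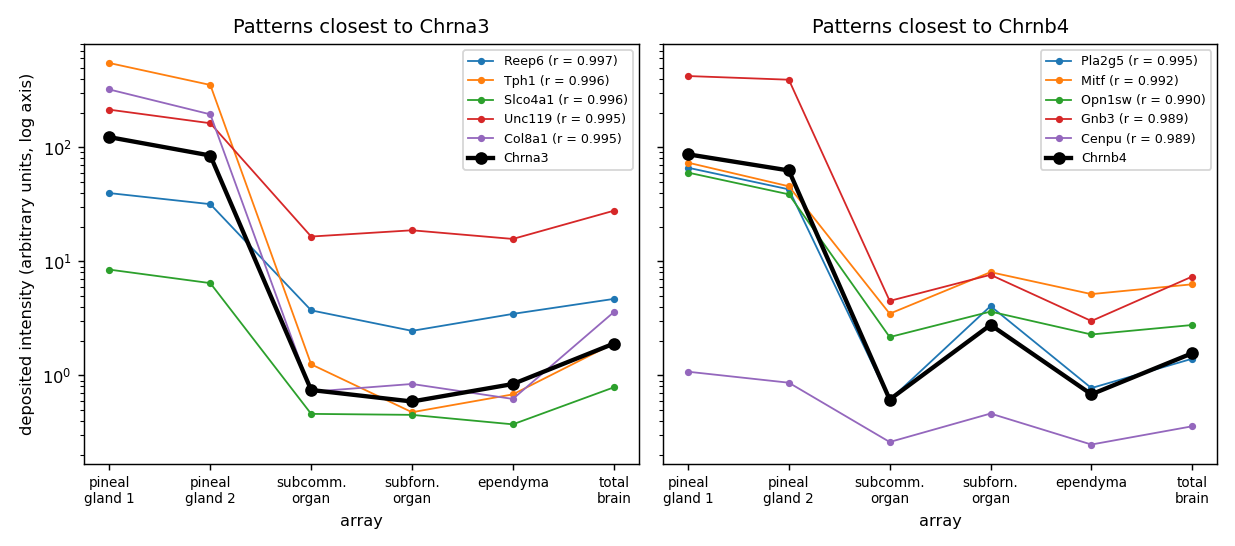
Deposited intensity (log axis) of Chrna3 and Chrnb4 (black, brightest probe) and of the 5 genes closest to each by Pearson r over 6 arrays. All lines fall from the 2 pineal gland arrays to the other tissues, and in the right panel most of them have a second, lower peak in the subfornical organ, where Chrnb4 is at 2.77.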

How the data were processed

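Expression was measured on 6 one-colour (Cy5) microarrays. Per the labels, 2 rounds of in vitro transcription amplified 3 ng of total RNA. The deposited values are intensities on a linear scale that the authors had processed. No source used here gives the scanner, the background correction or the scaling, and entries of -9999 count as missing. The table lists 35129 probes. Every array had a value for 34963 of them. Of all 35129, 16865 had 1 gene symbol in the platform annotation (165 had several, and the rest are unnamed here).

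A floor at the pooled 5th percentile (0.142) was set before taking log2, with no further scaling. Each gene was represented by its probe with the highest mean. Genes whose higher side reached the pooled median were tested with limma 3.58.1 (R 4.3.3, two-sided moderated test from lmFit and eBayes, with a call at a Benjamini-Hochberg adjusted p under 0.05) on all 6 arrays with a mean per tissue. Only the 2 pineal gland arrays give a residual degree of freedom, and lone arrays were assumed to vary like it. The calculation was tested on simulated data, drawn with the same normal spread for every gene. Since the real spread was larger for dim genes, that test does not bear on their calls. Comparisons of 1 array with 1 array were counted at 4-fold without a test. The number of arrays limits the precision.

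The subunit genes and all lists were chosen with earlier results of these data known. Named genes were all subunits, up to 4 genes per list by size of difference from total brain plus those that account for a list, and the 5 closest patterns. Genes around the cluster, the fit over all probes and the bound at 1.05 were added after the data were seen. Alternatives were quantile normalization, a filter at the 75th percentile or none, a floor at the 10th percentile, the mean of a gene's probes, all probes, and leaving out each pineal gland array.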

Additional observations from a re-analysis of the deposited data

How the results depend on the processing

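Chrna3 and Chrnb4 were called higher in the pineal gland than in each of the 4 other tissues in every setting with a test (quantile normalization, a filter at the 75th percentile or none, a floor at the 10th percentile, the mean of a gene's probes, and all probes). Over the settings with 1 value per gene the log2 difference of Chrna3 from total brain lay between 5.48 and 6.16, and that of Chrnb4 between 4.51 and 5.89. Over all probes those of Chrnb4 gave 3.48 to 5.56. Without either pineal gland array no test was left, and subunit genes at 4-fold numbered 2 to 3 against total brain and the subcommissural organ and 2 against the ependyma and the subfornical organ. Chrna3 and Chrnb4 were higher in the pineal gland each time, and the third gene was Chrna5, in opposite directions. Without the first array Chrna5 was lower than in total brain, at -2.63. Without the second it was higher than in the subcommissural organ, at 1.81 against 0.337, a reading under the limit. The share of all genes at 4-fold was not computed for these settings.

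With the filter at the 75th percentile Chrna5 was not measured, so that the number of subunit genes at least 4-fold from total brain fell from 1 to 0 in the subcommissural organ and in the ependyma. With the mean of all probes it rose from 0 to 1 in the subfornical organ. The number of all genes called against total brain, 2160, became 1214 after quantile normalization, 991 without a filter and 3470 over all probes. Against the ependyma 1810 became 1115 after quantile normalization and 724 without a filter. Against the subfornical organ 1866 became 1030 and 622. Against the subcommissural organ 1838 became 725 without a filter. With the filter at the 75th percentile, genes at 4-fold from total brain fell from 2140 to 1411 in the subcommissural organ, from 1542 to 866 in the subfornical organ and from 1522 to 877 in the ependyma. That filter tested fewer genes. For the other settings the cause was not tested.

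Quantile normalization moved the median log2 difference of all genes between the pineal gland and total brain from -0.45 to 0.03, and the split of calls from 696 higher and 1464 lower to 575 and 639. In the ependyma against total brain, genes at 4-fold went from 672 higher and 850 lower to 781 and 601. No paired analysis was possible because each group other than the pineal gland had a single array, so any 2 groups shared fewer than 2 replicate numbers, and the labels number only the pineal gland arrays. The unknown scaling of the deposited intensities, a single residual degree of freedom and dim probes limit what can be seen, and low genes have only a bound.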
